A study of Mus musculus with 4 samples.

Results

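The genes described here are *Gfral*, which encodes the receptor of the hormone GDF15, *Ret*, its signalling subunit, *Gfra1* and *Gfra2*, receptors of the GDNF family that use the same subunit, and *Gdf15* itself. These 5 of 32285 genes were chosen by name and were read across 134 neuronal clusters and 14 cell types of the posterior hindbrain, as counted in the deposited annotation, where the study states a slightly larger number of neuronal clusters, in 39461 nuclei of which 12539 were neurons. Nuclear RNA was counted as unique molecular identifiers (UMIs, 1 per captured transcript) in 4 libraries made with the 10x Genomics 3′ kit, 2 of controls and 2 of AgRP-Gq;POMC-Gi mice. The latter were AgRP-IRES-Cre+/-;hM3DGqfl/-;POMC-Dre+/-;hM4DGifl/-, so that AgRP neurons express the activating receptor hM3DGq and POMC neurons, which occur in the hypothalamus and in smaller number in the hindbrain, the inhibiting receptor hM4DGi. Controls lacked both recombinases but carried both receptor alleles (AgRP-IRES-Cre-/-;hM3DGqfl/-;POMC-Dre-/-;hM4DGifl/-). Their sample titles call them WT. All mice were adults of 12 to 20 weeks and of both sexes, and all had received the ligand of these receptors, CNO, at 3 mg per kg intraperitoneally 1 h before the tissue was taken, without food in between. Tissue of mice of the same group was pooled and it is not stated which mice went into which library. The p-values below thus measure the spread between libraries. This spread may be technical in part, which was not tested. Between the AgRP-Gq;POMC-Gi libraries it also held a difference in the content of female nuclei, described below.

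GDF15 is a stress-induced hormone of the TGF-beta superfamily that suppresses feeding and causes aversion. Its receptor GFRAL is known from neurons of the area postrema and the adjacent nucleus of the solitary tract, where it binds GDF15 on the cell surface and signals through the tyrosine kinase RET. GFRα1 and GFRα2, the preferred receptors of the neurotrophic factors GDNF and neurturin, signal through RET as well, and can also occur on cells without it.

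On the assembly GRCm38 with the GENCODE M21 annotation, *Gfral* (ENSMUSG00000059383) lies at chr9:76164102-76213657 and *Ret* (ENSMUSG00000030110) at chr6:118151745-118197718, both on the minus strand. *Gfra1* (ENSMUSG00000025089) lies at chr19:58235604-58455909 on the minus strand, *Gfra2* (ENSMUSG00000022103) at chr14:70890120-70979838 on the plus strand and *Gdf15* (ENSMUSG00000038508) at chr8:70629393-70632456 on the minus strand. Of these, *Gfra1* overlaps another annotated gene, the antisense gene *Gm16277*, over 444 bp. The genes span 3.06 kb (*Gdf15*) to 220 kb (*Gfra1*), and levels are compared between cells and not between genes.

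In the RefSeq table of gene starts on GRCm38.p6, 3 of the 5 genes (*Gfral*, *Gfra1* and *Gdf15*) were found, with 4 start sites in all. The 250 bases before the start of *Gfral* (chr9:76213658-76213907, minus strand, GC content 39.6%) are shown because *Gfral* had the most concentrated expression among clusters of the 4 receptor genes. The AP-2 motif was searched because *Tfap2b*, an AP-2 factor, was found in its leading cluster, mostly in nuclei without a *Gfral* UMI (39 of 50).
Gfral upstream: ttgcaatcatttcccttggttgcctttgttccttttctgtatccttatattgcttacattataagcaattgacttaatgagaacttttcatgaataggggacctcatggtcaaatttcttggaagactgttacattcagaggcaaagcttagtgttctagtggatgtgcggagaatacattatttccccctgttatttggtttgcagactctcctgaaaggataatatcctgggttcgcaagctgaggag
Both strands were searched for the AP-2 motif GCCNNNGGC. None of the 4 windows before the start sites of these 3 genes held a match, and no part of the sequence is therefore in capitals. Of 32817 such windows before mouse gene starts, 13.7% held the motif.

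The libraries contained 9723 to 10051 nuclei and 48904976 to 53089402 UMIs. The neuronal share was 25.4% and 27.2% in control replicates 1 and 2, and 38.0% and 36.5% in AgRP-Gq;POMC-Gi replicates 1 and 2, the order in which values of the 4 libraries are given throughout. Replicates of the same group were unequal in choroid plexus nuclei (2, 436, 6 and 329), and the choroid plexus transcript *Ttr* was at 1.49, 1003, 7.53 and 580 CPM (UMIs of the gene per 1000000 UMIs) in neurons. *Xist*, the X-inactivation RNA of female cells, was at 507, 319, 541 and 16.2 CPM in neurons, so that the last library stood apart. The 2 AgRP-Gq;POMC-Gi libraries thus differed in their content of female nuclei. The sex makeup of the libraries is not stated. Among the libraries, 168 barcode sequences were kept in 2 or more, of which 1 had the same cluster in both and 1 had a *Gfral* UMI.

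Most UMIs of the 4 receptor genes came from neurons, which are also the most deeply sequenced nuclei. *Gfral* had 542 UMIs in 243 neurons (1.94%), and 89.6% of its UMIs in all nuclei came from neurons. *Ret* was found in 1069 neurons (8.53%), which held 88.2% of its UMIs. *Gfra2* was found in 1799 neurons (14.3%), which held 89.3% of its UMIs. *Gfra1* was found in 2649 neurons (21.1%), but these held only 70.4% of its UMIs, the rest being mostly in the oligodendrocyte lineage. By mean CPM, smaller classes were above neurons for *Gfra1* (OPC, 203 against 45.9 CPM), *Gfra2* (mural cells, 79.7 against 19.5 CPM) and *Ret* (endothelial cells, 19.5 against 10.7 CPM), and so were the tanycyte-like nuclei for *Gfral* (13.3 against 4.205 CPM, from 5 UMIs). *Gdf15* was close to the limit of detection, with 44 UMIs in 44 neurons (0.351%) and 43.1% of its UMIs in neurons.

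To locate the GDF15 receptor, UMIs of *Gfral* were summed per library and cluster and set against the total UMIs of those nuclei. A single cluster stood out, number 97, which the authors named for *Gfral* and the secretin receptor gene *Sctr*. Its *Gfral* level was 192, 322, 434 and 318 CPM in the 4 libraries (316 ± 98.7 CPM, SD, n = 4). Of its 101 nuclei, 34 had a *Gfral* UMI (33.7%, exact 95% interval 24.6 to 43.8%). By library these were 1 of 7, 6 of 17, 15 of 40 and 12 of 37 nuclei. The cluster was built from expression, so this is a description and not a test. It was the only one of 132 clusters present in all 4 libraries with a mean above 50 CPM, whereas the median cluster was at 0.834 CPM and 48 clusters were at 0.

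The next clusters in the order of *Gfral* were far lower. Cluster 154, led by the odorant receptor genes *Olfr78* and *Olfr560* and the calcitonin receptor gene *Calcr*, was at 118, 0, 0 and 11.2 CPM, and cluster 159, led by the calcium-sensing receptor gene *Casr* and the noradrenaline transporter gene *Slc6a2*, at 120, 0, 0 and 5.74 CPM. Both means rested on control replicate 1, in which 3 nuclei of each cluster held 4 and 1 *Gfral* UMIs. Cluster 149, led by *Arhgap28* and the neuropeptide genes *Cartpt* and *Tac1*, was at 20.0, 41.7, 19.0 and 26.9 CPM with a UMI in 7 of 55 nuclei. Cluster 100, led by *Gm45194* and *Megf10*, was at 12.9, 12.4, 6.62 and 16.7 CPM with a UMI in 7 of 98 nuclei. Every library of cluster 149 was above every library of cluster 100, while clusters 154 and 159, with libraries at 0, overlapped with both. Every library of cluster 97 was above every library of all 4.

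**Figure D1:**
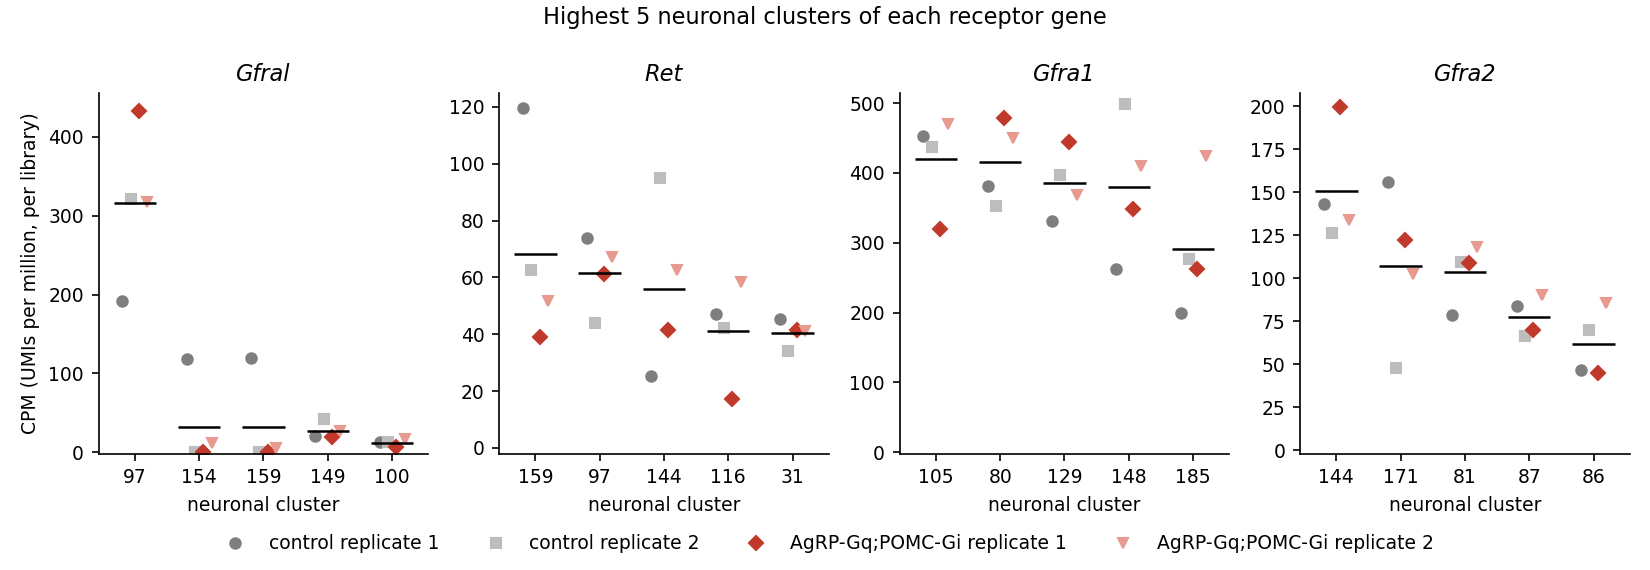
CPM of the 4 receptor genes (y axis, a separate linear scale for each gene) in the 5 neuronal clusters with the highest mean (x axis, cluster number), with a symbol for each library and a line at the mean of 4. *Gfral* falls from 316 CPM in cluster 97 to a mean of 32.4 CPM in the next cluster, whereas the levels of *Ret*, *Gfra1* and *Gfra2* descend gradually and overlap between neighbours.

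Transcripts of *Gfral* were also concentrated in few nuclei. Cluster 97 held 34 of the 243 *Gfral* nuclei (14.0%) but 289 of the 542 UMIs (53.3%), and by library 16.0, 45.4, 68.6 and 57.3% of the UMIs. Its *Gfral* nuclei had a median of 8.5 *Gfral* UMIs and up to 26, and 30 of the 34 had at least 2. Elsewhere, 209 of 12438 neurons (1.68%) had a *Gfral* UMI, 173 of them a single one, and none had more than 4. These neurons were deeply sequenced, with a median of 12298 UMIs against 8712 in all neurons outside the cluster. After thinning each nucleus to 2000 UMIs, *Gfral* was detected in 27.3% of cluster 97, 0.358% of the other neurons and 0.123% of oligodendrocytes, which are not known to express it. At the same depth it was detected in 0.337% of astrocytes and in 0.571% of 175 tanycyte-like nuclei. The share in the other neurons was thus close to that in astrocytes. Without thinning, the share in oligodendrocytes was 24 of 16816 nuclei (0.143%) at a median depth of 2460 UMIs.

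Outside neurons *Gfral* was sparse. Astrocytes had a UMI in 20 of 4378 nuclei (0.457%), and the nuclei annotated as tanycyte-like had 5 UMIs in 3 of 202 nuclei, 4 of these UMIs in control replicate 2. Endothelial and mural nuclei had none, which allows shares of up to 0.38% of 789 and 0.372% of 806 nuclei with a UMI. At their median depths of 1460 and 1520.5 UMIs a low transcript is often missed, so the limit is on detection and not on expression. These intervals and limits cover counting error only.

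*Ret*, the tyrosine kinase subunit, was more widely and evenly distributed. The median cluster was at 6.99 CPM, and 117 of 132 clusters had at least 1 UMI, 40 of them in all 4 libraries. The mean was highest in cluster 159 (3 nuclei in control replicate 1), at 120, 62.6, 39.0 and 51.6 CPM, with a UMI in 16 of 50 nuclei. Cluster 97 came second, at 73.9, 43.9, 61.1 and 67.1 CPM (61.5 ± 12.8 CPM, SD, n = 4), with a UMI in 29 of 101 nuclei. The leading *Gfral* cluster was thus among the highest *Ret* clusters, although the libraries of clusters 159, 97 and 144 overlapped and their order is not resolved.

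The remaining leading *Ret* clusters were of other kinds. Cluster 144, led by *Nox4*, *Lix1* and the transcription factor gene *Sall3*, was at 25.3, 94.9, 41.6 and 62.5 CPM. Cluster 116 was cholinergic motor neuron-like, with the acetylcholine synthesis gene *Chat* in 75.6%, the choline transporter gene *Slc5a7* in 80.5% and the neurofilament gene *Prph* in 79.3% of its nuclei, and its *Ret* level was 47.0, 42.2, 17.3 and 58.4 CPM with a UMI in 31 of 82 nuclei. RET is known for its role in motor neuron survival and axon growth in response to GDNF. This cluster held 1 *Gfral* UMI, in AgRP-Gq;POMC-Gi replicate 1. Cluster 31, led by *Cdh3* and *Gpc4*, was at 45.3, 34.0, 41.6 and 41.2 CPM with a UMI in 71 of 204 nuclei, the most even of the 5 across libraries. Among the other cell types, endothelial nuclei had 24.5, 6.98, 29.1 and 17.5 CPM of *Ret* in 22 of 789 nuclei (2.79%), against 0.529% of oligodendrocytes.

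*Gfra1*, the GDNF receptor gene, had several strong clusters. Cluster 105, led by *Gmnc*, was at 453, 436, 320 and 471 CPM with a UMI in 72 of 93 nuclei. Cluster 80, led by the dynorphin precursor gene *Pdyn*, was at 381, 353, 478 and 450 CPM with a UMI in 94 of 115 nuclei. Cluster 129, led by *Ccdc172* and the transcription factor genes *Bnc2* and *Ebf2*, was at 332, 397, 444 and 368 CPM with a UMI in 56 of 67 nuclei. The ranges of these clusters overlapped, as did those of cluster 148 (263 to 499 CPM) and cluster 185 (200 to 425 CPM, 15 nuclei in all), so no single cluster can be called the highest. In all, 46 clusters were above 50 CPM and 19 above 100 CPM. In cluster 97, *Gfra1* was at 73.9, 58.5, 9.16 and 42.4 CPM and ranked 51st of 132.

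*Gfra1* also had a large part of its transcripts outside neurons. Oligodendrocyte precursors (OPC) were at 179, 201, 207 and 227 CPM, all 4 libraries above those of neurons as a whole (41.8, 44.5, 45.7 and 51.4 CPM), with a UMI in 380 of 784 nuclei (48.5%). Of these 380 nuclei, 8 (2.11%) also had a *Ret* UMI, against 2 of the 404 without *Gfra1*. Mature oligodendrocytes were at 23.9, 37.4, 36.8 and 26.7 CPM, and their 13 clusters ranged from a mean of 1.79 CPM in cluster 6 to 100 CPM in cluster 8, at median depths of 3700 and 2200 UMIs per nucleus. The share of nuclei with a *Gfra1* UMI was 16.8% in the latter and 0.606% in the former, so the deeper cluster had the lower share. Astrocytes had a UMI in 1.85% and immune cells marked by *Tmem119* in 0.619% of nuclei.

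*Gfra2*, the neurturin receptor gene, was highest in cluster 144, at 143, 127, 200 and 134 CPM with a UMI in 35 of 58 nuclei. This is also one of the leading clusters of *Ret*. Cluster 171, led by *Gm45587* and the transcription factor gene *Gbx1*, was at 156, 47.9, 122 and 103 CPM, and cluster 81, led by *Mboat1*, at 78.4, 109, 109 and 118 CPM. Clusters 87 and 86 followed at 66.3 to 90.3 and 44.9 to 85.6 CPM. *Gbx1* was among the first 8 leading genes of clusters 144, 171, 81 and 87, and *Sall3* of clusters 144, 171 and 87. In cluster 97, *Gfra2* was at 14.8, 21.9, 9.16 and 17.7 CPM and ranked 71st. The highest cell type was mural cells, at 71.0, 110, 74.4 and 63.6 CPM with a UMI in 103 of 806 nuclei (12.8%), of which 1 also had a *Ret* UMI. Within mural cells, cluster 98 was at 147 ± 35.1 CPM and cluster 13 at 70.6 ± 20.0 CPM (SD, n = 4), at similar median depths of 1597 and 1503 UMIs.

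*Gdf15*, the hormone gene, had no cluster with a UMI in all 4 libraries. In neurons it was at 0.372, 0.510, 0.225 and 0.340 CPM, and 100 of 132 clusters were at 0. The highest mean, in the serotonergic cluster 167 led by *Tph2* and *Slc6a4*, came from 2 UMIs in 43 nuclei (0, 18.0, 10.3 and 0 CPM). Cluster 97 had none in 101 nuclei, which allows a share of nuclei with a UMI of up to 2.97% and does not bound expression at this depth. Choroid plexus had 24 UMIs in 21 of 773 nuclei (2.72%), at 0, 6.69, 0 and 7.04 CPM, but the libraries without a UMI contained only 2 and 6 choroid plexus nuclei. The background share in oligodendrocytes was 11 of 16816 nuclei (0.0654%).

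**Figure D2:**
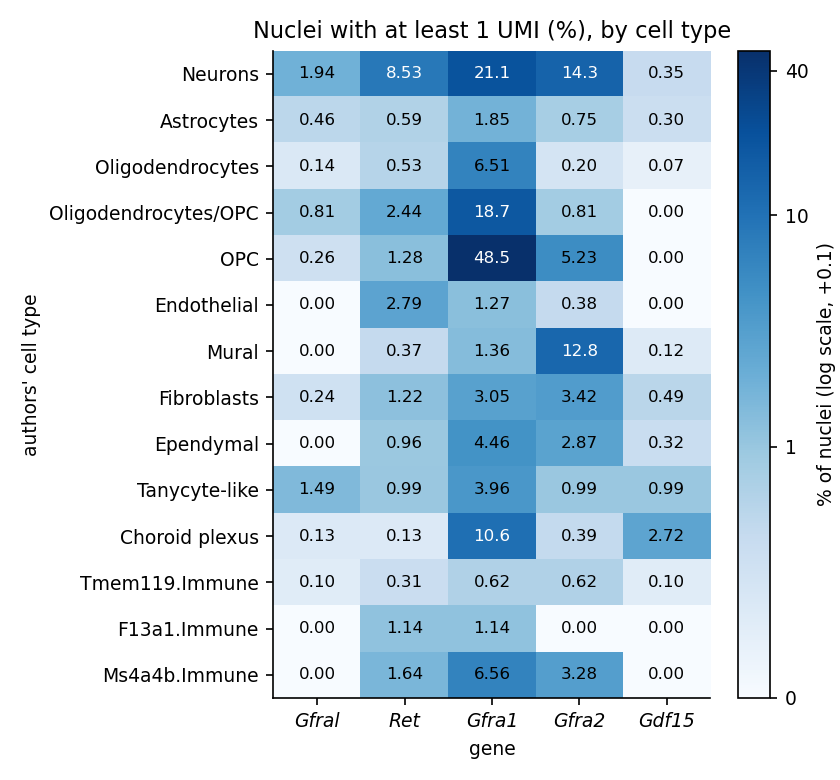
Share of nuclei with at least 1 UMI (number in each cell, in percent, and colour on a log scale after adding 0.1) for the 5 genes (columns) in the 14 annotated cell types (rows), all libraries combined. *Gfra1* in OPC (48.5%), *Gfra2* in mural cells (12.8%), *Ret* in neurons (8.53%) and *Gdf15* in choroid plexus (2.72%) stand out in their columns, *Gfra2* next to neurons at 14.3%, and the sequencing depth differs between types.

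Because GFRAL signals through RET, the presence of both transcripts in the same nucleus was counted. Of the 243 neurons with a *Gfral* UMI, 42 had a *Ret* UMI (17.3%, exact 95% interval 12.7 to 22.6%), against 1027 of 12296 neurons without *Gfral* (8.35%). By library the share was 14.3, 20.4, 16.4 and 18.5%. Neurons with *Gfral* were deeper, with a median of 11225 against 8648.5 UMIs. Among the 66 neurons with at least 2 *Gfral* UMIs, 23 had *Ret* (34.8%). Thinned to 2000 UMIs, 4 of 71 *Gfral* neurons had *Ret* (5.63%) against 1.89% of the others.

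In cluster 97 the depths were alike and the difference was larger. There 17 of 34 nuclei with *Gfral* had *Ret* (50%, exact 95% interval 32.4 to 67.6%) against 12 of 67 without (17.9%, 9.61 to 29.2%), at median depths of 7004.5 and 6833 UMIs. By library the counts were 1 of 1, 4 of 6, 5 of 15 and 7 of 12 with *Gfral*, against 1 of 6, 2 of 11, 7 of 25 and 2 of 25 without. The share was higher in the *Gfral* nuclei of each library, but AgRP-Gq;POMC-Gi replicate 1 differed little (33.3% against 28.0%). Thinned to 2000 UMIs, 4 of 27 had *Ret* (14.8%, 4.19 to 33.7%) against 5 of 72 (6.94%, 2.29 to 15.5%), and the intervals overlapped. In the other neurons, 25 of 209 with *Gfral* had *Ret* (12.0%) against 8.30% of those without, at median depths of 12298 and 8658 UMIs. After thinning, none of 44 had *Ret*, against 1.86% of the others.

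**Figure D3:**
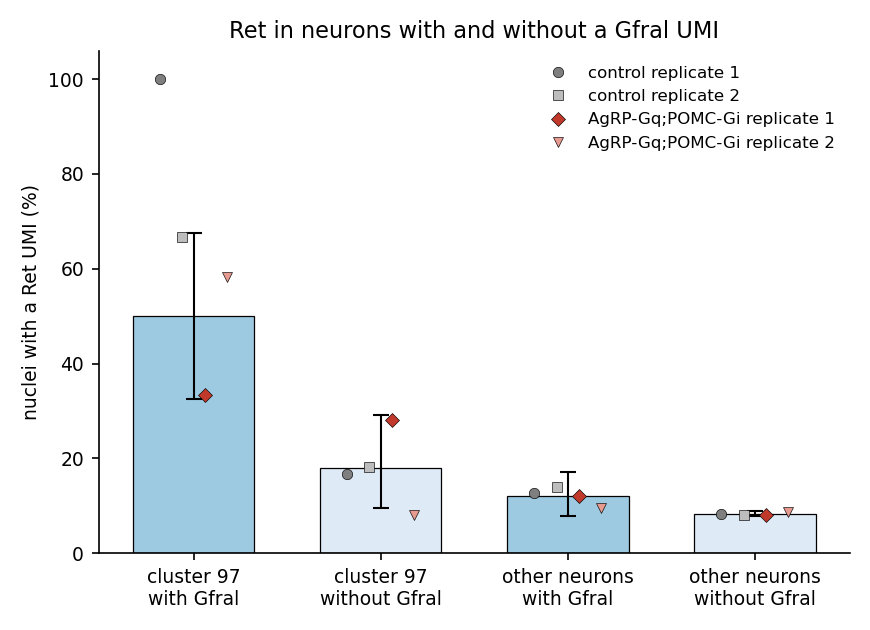
Share of nuclei with a *Ret* UMI (y axis, percent) in neurons with and without a *Gfral* UMI, in cluster 97 and in all other neurons, with bars for all libraries combined, exact 95% intervals as error bars and symbols for single libraries. The bars are at 50, 17.9, 12.0 and 8.30%, and the symbol at 100% is a single nucleus.

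Neurons with and without *Ret* often lacked a UMI of *Gfra1*, *Gfra2* and *Gfral*. The GDNF family receptor genes *Gfra3* and *Gfra4* were not part of this count. Of 1069 neurons with *Ret*, 259 (24.2%) had *Gfra1*, 170 (15.9%) *Gfra2* and 42 (3.93%) *Gfral*, while 665 (62.2%) had none of the 3. Neurons without *Ret* had *Gfra1* in 20.8%, *Gfra2* in 14.2%, *Gfral* in 1.75% and none of the 3 in 67.1%. Their median depth was 8453 against 12230 UMIs. The shares of *Gfra1* and *Gfra2* thus differed by under 4 percentage points in spite of the greater depth. In cluster 97 none of the 29 *Ret* nuclei had *Gfra2*, which 10 of the other 72 had, and 6 had *Gfra1*.

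Cluster 97 was excitatory by its transporter, with the glutamate transporter gene *Slc17a6* in 68.3% and the GABA transporter gene *Slc32a1* in 4.95% of nuclei. The aromatic amino acid decarboxylase gene *Ddc* was found in 79.2%, and the catecholamine synthesis genes *Th* and *Dbh* in 21.8% each. Of the transcription factors of area postrema neurons, *Tfap2b* was found in 49.5% and *Lmx1b* in 46.5%. The receptor genes *Gipr* and *Cckar* had no UMI, *Calcr* was in 1 nucleus and *Glp1r* in 9.90%.

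Within the cluster, *Gfral* and *Sctr* hardly occurred together. A *Gfral* UMI alone was found in 33 nuclei, an *Sctr* UMI alone in 36, both in 1 and neither in 31, where independence would give 12.5 nuclei with both. The *Gfral* nuclei held 1 of the 122 *Sctr* UMIs. The nucleus with both came from control replicate 2, and in the 3 other libraries the numbers were 0 of 7, 0 of 40 and 0 of 37.

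**Figure D4:**
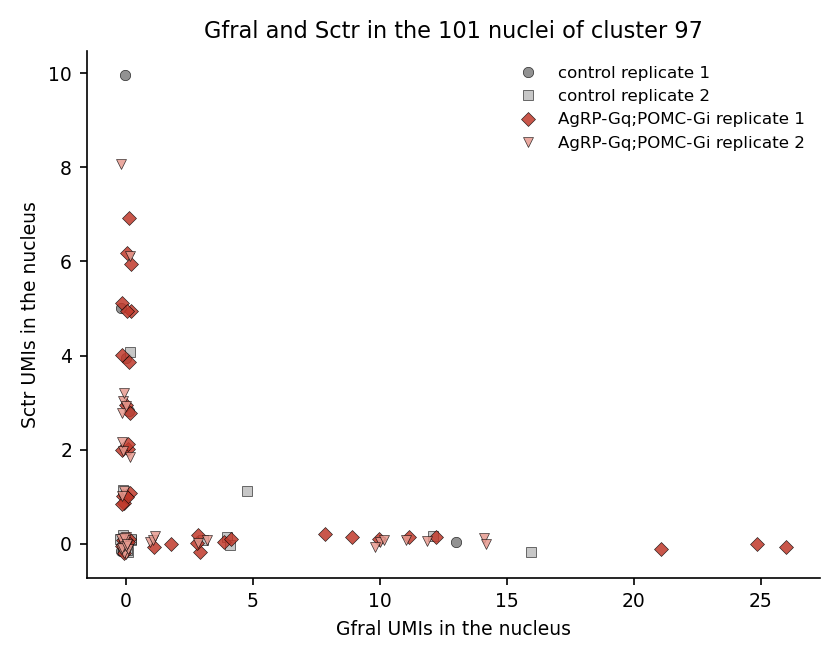
*Gfral* UMIs (x axis) and *Sctr* UMIs (y axis) in each of the 101 nuclei of cluster 97, with symbols for the library and a small random offset so that overlapping nuclei can be seen. The points lie along the axes, with 1 nucleus holding both transcripts.

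After this separation had been seen, all genes were compared between nuclei of cluster 97 with and without a *Gfral* UMI, on UMIs summed per library with the library as a block, so that each library served as its own control. Of 10896 genes tested with edgeR's quasi-likelihood test, 161 passed an adjusted p (Benjamini-Hochberg) under 0.05 (1.48%), 41 higher (0.376%) and 120 lower (1.1%) in *Gfral* nuclei. These counts include *Ret* and *Sctr*, whose relation to *Gfral* was known beforehand and which therefore carry no support. Other genes that follow the division already seen would pass as well. Their adjusted p-values thus describe that division in these nuclei and are not independent support for it. The nuclei without *Gfral* were mixed, 36 with *Sctr* and 31 with neither, and control replicate 1 gave 1 nucleus with *Gfral*. The median of all genes was -0.21 on the log2 scale and moved by 0.14 without TMM factors, which gave 104 higher and 138 lower genes. Leaving out AgRP-Gq;POMC-Gi replicate 1 or 2, with 15 and 12 of the 34 *Gfral* nuclei, left 35 and 68 genes, and leaving out control replicate 1 gave 265. DESeq2 called 103 genes.

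*Ret* is given as a description, without a test, because its occurrence with *Gfral* in the same nuclei had already been counted. Its level was 451, 87.2, 78.1 and 189 CPM with *Gfral* against 17.0, 22.02, 51.8 and 10.4 CPM without, higher in each library, with the first value resting on 4 UMIs of 1 nucleus. The log2 fold change was 2.10 ± 0.55 (SE), and 1.38 once AgRP-Gq;POMC-Gi replicate 2 was left out. *Gfra1*, at 57.7 CPM with and 23.4 CPM without *Gfral*, had a log2 fold change of 1.17 (edgeR adjusted p = 0.798). *Gfra2*, at 3.84 and 19.8 CPM, had a log2 fold change of -2.14 (edgeR adjusted p = 0.879), and *Gdf15* was not detected.

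Of 24 RET partners and adaptors, 19 were tested and none passed, with 12 higher and 7 lower and a median log2 fold change of 0.11. The nearest was *Shc1*, which encodes an adaptor that binds phosphorylated RET. It was at 113, 65.4, 69.4 and 55.5 CPM with *Gfral* and 17.0, 0, 14.1 and 5.18 CPM without, and was found in 15 of 34 against 4 of 67 nuclei (log2 fold change 2.61 ± 0.78 SE, edgeR adjusted p = 0.0514). It passed in 5 of 9 alternatives, with adjusted p from 0.0125 without TMM factors to 0.0446 without a filter on genes. It did not pass without control replicate 2 (adjusted p = 0.218) or when AgRP-Gq;POMC-Gi replicate 1 (0.798) or 2 (0.629) was left out, and DESeq2 gave it no adjusted p. The kinase gene *Src*, in 14 of 34 and 12 of 67 nuclei, had a log2 fold change of 1.09 (edgeR adjusted p = 0.83), and the adhesion molecule gene *Ncam1*, in 32 of 34 and 65 of 67 nuclei, one of -0.49 (edgeR adjusted p = 0.997).

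Of 23 companion genes of the area postrema, 14 were tested and *Casr* and *Ddc* passed as higher, while *Sctr*, the gene that prompted the comparison, was lower. *Casr* was at 0, 196, 130 and 66.5 CPM with *Gfral* against 0, 0, 9.42 and 10.4 CPM without, and was found in 15 of 34 against 3 of 67 nuclei (log2 fold change 3.59 ± 0.72 SE, edgeR adjusted p = 1.33e-04). It did not pass when AgRP-Gq;POMC-Gi replicate 1 was left out (log2 fold change 3.55, adjusted p = 0.109). *Ddc* was at 1239, 959, 668 and 588 CPM with *Gfral* against 306, 176, 349 and 223 CPM without, so the ranges did not overlap (log2 fold change 1.34 ± 0.40 SE, edgeR adjusted p = 0.0475). It did not pass without control replicate 2 (adjusted p = 0.549), when AgRP-Gq;POMC-Gi replicate 1 (0.672) or 2 (0.682) was left out, or without the library block (0.0660). *Sctr* was at 0, 21.8, 0 and 0 CPM with *Gfral* against 374, 55.0, 283 and 176 CPM without (log2 fold change -5.44 ± 0.82 SE), the separation that had prompted the comparison and for which no test is given. *Tfap2b* was at 0, 109, 95.4 and 22.2 CPM with *Gfral* against 68.0, 88.1, 236 and 254 CPM without, in 11 of 34 against 39 of 67 nuclei (log2 fold change -1.62 ± 0.49 SE, edgeR adjusted p = 0.0618), and passed in 3 of 9 alternatives, with 0.00608 without control replicate 1, 0.0319 without control replicate 2 and 0.0282 without TMM factors. *Th* and *Dbh* did not differ beyond their error, with log2 fold changes of -0.20 ± 0.67 and 0.30 ± 0.68 (SE).

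The genes with the lowest p among those higher in *Gfral* nuclei were *Etv1*, *Sntb1*, *Slc6a15*, *Rarb*, *Mgat5*, *Fbxl7*, *Dach1*, *Prkd1*, *Kcnq5* and *Casr*. The transcription factor gene *Etv1* was at 563, 676, 816 and 943 CPM with *Gfral* and 34.0, 33.02, 28.3 and 72.5 CPM without, in 32 of 34 against 15 of 67 nuclei (log2 fold change 4.01 ± 0.48 SE, edgeR adjusted p = 7.08e-13). The retinoic acid receptor gene *Rarb* was at 1464, 1308, 2048 and 1120 CPM against 170, 187, 325 and 192 CPM (log2 fold change 2.48 ± 0.43 SE, edgeR adjusted p = 3.91e-06). In both, every library was higher with *Gfral* and the ranges were far apart. *Etv1*, *Sntb1*, *Slc6a15* and *Rarb* passed in 9 of 9 alternatives, while without AgRP-Gq;POMC-Gi replicate 1 the adjusted p rose to 0.0847 for *Mgat5*, 0.658 for *Fbxl7*, 0.158 for *Dach1*, 0.0853 for *Prkd1* and 0.314 for *Kcnq5*. Without AgRP-Gq;POMC-Gi replicate 2 it was 0.0946 for *Dach1* and 0.56 for *Kcnq5*. *Casr* and *Etv1* were also among the leading genes of cluster 159, one of the leading clusters of *Ret*, at 321 and 394 CPM there.

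Beside *Sctr*, the genes with the lowest p among those lower in *Gfral* nuclei were *Grip1*, *Etl4*, *Cdh12*, *Gm28494*, *Caln1*, *Cntn5*, *Dpyd*, *Htr2c* and *Cartpt*. The neuropeptide gene *Cartpt* was at 0, 0, 8.68 and 0 CPM with *Gfral* and 187, 242, 217 and 88.1 CPM without, in 1 of 34 against 16 of 67 nuclei (log2 fold change -5.26 ± 0.83 SE, edgeR adjusted p = 1.58e-07). The serotonin receptor gene *Htr2c* rested on 7 of 67 nuclei and did not pass in DESeq2 (adjusted p = 0.9997) or without AgRP-Gq;POMC-Gi replicate 1 (0.266), whereas the remaining 8 passed in 9 of 9 alternatives. The neuronal marker gene *Rbfox3* was at 0, 43.6, 26.0 and 0 CPM with *Gfral* against 136, 143, 151 and 140 CPM without, in 4 of 34 against 31 of 67 nuclei (log2 fold change -2.97 ± 0.63 SE, edgeR adjusted p = 4.74e-04). It did not pass without AgRP-Gq;POMC-Gi replicate 1 (adjusted p = 0.0844) or 2 (0.159). The neuronal genes *Snap25*, in 32 of 34 and 60 of 67 nuclei, and *Syt1*, in 33 of 34 and 49 of 67, did not pass. The 4 oligodendrocyte markers were all lower in *Gfral* nuclei without passing (median log2 fold change -0.97, smallest edgeR adjusted p = 0.126). *Vcan*, a marker of oligodendrocyte precursors, was lower too (log2 fold change -2.17 ± 0.70 SE, edgeR adjusted p = 0.10), in 5 of 34 against 18 of 67 nuclei. Of the 2 microglial markers tested, 1 was higher and 1 lower, with a median log2 fold change of -0.20. The higher one, *P2ry12*, had a log2 fold change of 1.04 ± 0.51 (SE, edgeR adjusted p = 0.649), in 19 of 34 against 22 of 67 nuclei. The part of these markers in the differences was not tested.

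**Figure D5:**
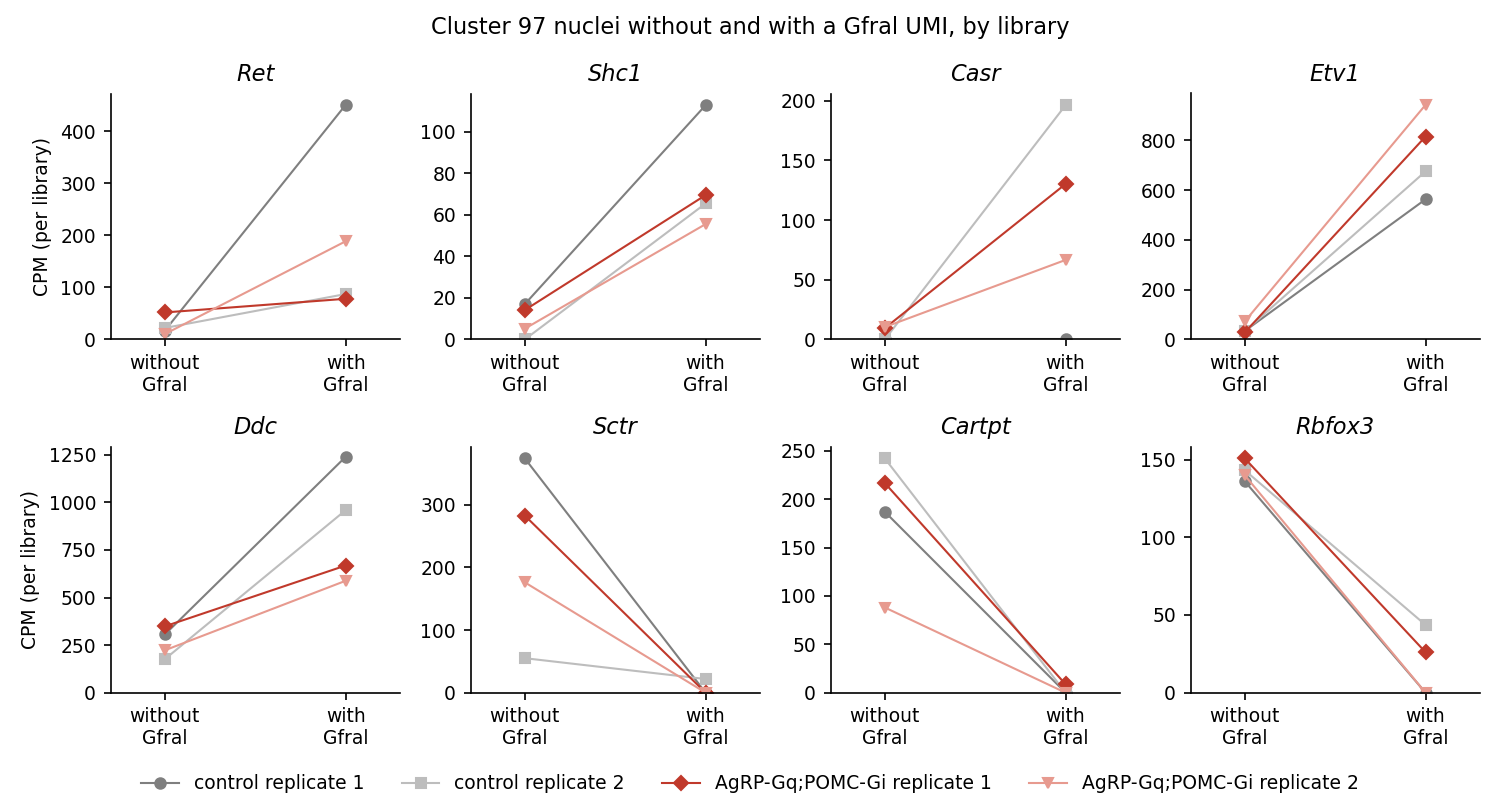
CPM (y axis, linear, per library) of 8 genes in nuclei of cluster 97 without and with a *Gfral* UMI (x axis), with a line for each library. *Ret*, *Shc1*, *Etv1* and *Ddc* are higher with *Gfral* in each of the 4 libraries, *Casr* in 3 with the remaining one at 0 in both, and *Sctr*, *Cartpt* and *Rbfox3* are lower in all 4.

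Across the 132 clusters, the genes with the pattern most like each receptor gene were ranked by Pearson's r of log2(mean CPM + 1), as a description. The clusters share libraries and depth, and genes of low counts share their zeros. For *Gfral* these were *Sctr* (r = 0.51), *B020031H02Rik* (0.50), *Fer* (0.44), *Gm45680* (0.42) and *Man2a1* (0.40), with *Ret* at 0.30. *Sctr* thus had the most similar pattern over clusters, although the transcripts were in different nuclei within cluster 97. For *Ret* they were *Gm48003* (0.48), *Lrtm1* (0.46), *Cacna2d3* (0.46), *Bud31* (0.45) and *Gm48006* (0.44). For *Gfra1* the first was its overlapping antisense gene *Gm16277* (0.69), which lies on the other strand, followed by *Gm10220*, *Kif17*, *St8sia4* and *Slit2* (0.42 to 0.40). For *Gfra2* they were *Plekhh2* (0.56), *Gabra3* (0.53), *Grm5* (0.53), *Prkar2b* (0.53) and *Slc22a17* (0.51). *Gdf15* had fewer than 100 UMIs in neurons and was not ranked.

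Of the remaining genes of the GDNF family, only *Gfra4* was common in neurons. This persephin receptor gene *Gfra4* was at 15.1 ± 0.587 CPM in neurons (SD, n = 4) and was detected in 13.6% of them, and in cluster 97 it was found in 0 of 34 *Gfral* nuclei and 4 of 67 others. Between the groups it had a log2 fold change of 0.04 in neurons (edgeR adjusted p = 0.951), and it was below the filter on detection in cluster 97. The ligand genes *Gdnf* (0.515 CPM), *Nrtn* (1.02 CPM), *Artn* (0.555 CPM) and *Pspn* (0.0283 CPM) and the receptor gene *Gfra3* (0.109 CPM) were detected in 0.0319 to 0.949% of neurons and were not tested.

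The comparison of AgRP-Gq;POMC-Gi with control mice asked whether acting on AgRP and POMC neurons through these receptors changed these genes in the hindbrain within 1 h. No change of a member passed the test. In all neurons, *Gfral* was at 3.02, 3.54, 5.82 and 4.45 CPM, with both controls below both AgRP-Gq;POMC-Gi libraries. The share of neurons with a *Gfral* UMI was 2.27, 1.79, 1.98 and 1.79%, where the groups overlapped. Without cluster 97 the level of *Gfral* was 2.54, 1.94, 1.84 and 1.91 CPM, with both controls above both AgRP-Gq;POMC-Gi libraries. These values rested on 68, 53, 65 and 67 UMIs, and those of the 2 second replicates were nearly equal. Of the genes past the filter on detection in neurons, which *Gfral* failed, 10.4% had both AgRP-Gq;POMC-Gi libraries above the controls and 27.7% both below. Cluster 97 made up 0.283, 0.621, 1.08 and 1.02% of neurons, a difference in means of 0.597 percentage points for which the exact two-sided permutation test gave p = 0.33, the smallest p that 2 against 2 libraries allow. A sum over neurons mixes the number of cells of a type with the RNA per cell. In cluster 97, 7, 17, 40 and 37 nuclei held 13, 44, 142 and 90 *Gfral* UMIs. The CPM of *Gfral* within this cluster overlapped between the groups. The number of nuclei also depends on dissection, and the cause of the difference was not tested. *Gfral* was tested without the filter on detection (log2 fold change 0.72 ± 0.21 SE, edgeR adjusted p = 0.867).

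*Ret* in all neurons was at 10.4, 9.77, 10.9 and 11.9 CPM (log2 fold change 0.24 ± 0.12 SE, edgeR adjusted p = 0.810). *Gfra1* was at 41.8, 44.5, 45.7 and 51.4 CPM (log2 fold change 0.23 ± 0.08 SE, edgeR adjusted p = 0.810). For both genes the AgRP-Gq;POMC-Gi libraries were above the controls, without passing, as they were for 10.4% of the genes tested in neurons, against 27.7% with both below the controls. *Gfra2* was at 21.1, 19.6, 16.0 and 21.3 CPM, where the groups overlapped (log2 fold change -0.07, edgeR adjusted p = 0.912). *Gdf15*, from 44 UMIs, had a log2 fold change of -0.58 ± 0.45 (SE, edgeR adjusted p = 0.867, without the filter). Over all 12115 genes tested in neurons, 0 passed (0%), 667 had an unadjusted p under 0.05, and DESeq2 called 10. Leaving out control replicate 1 or 2 gave 3 and 17 genes, and leaving out AgRP-Gq;POMC-Gi replicate 1 or 2 gave 29 and 2017, with no member among them. *Gfra2* was at a log2 fold change of 0.07 without AgRP-Gq;POMC-Gi replicate 1.

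In cluster 97, 6 of 10897 genes passed (0.0551%) and none of them was a member, while DESeq2 called 0 genes (67 with an unadjusted p under 0.05). Leaving out control replicate 1 or 2 gave 9 and 26 genes and leaving out either AgRP-Gq;POMC-Gi replicate gave 0, with 161 and 221 genes at an unadjusted p under 0.05. *Gfral*, at 192 and 322 CPM in controls against 434 and 318 CPM, overlapped between the groups (log2 fold change 0.65 ± 0.35 SE, edgeR adjusted p = 0.906). With a library left out the log2 fold change of *Gfral* was 0.38 and 1.16 without control replicate 1 and 2, and 0.34 and 0.91 when AgRP-Gq;POMC-Gi replicate 1 and 2 was left out, with a smallest adjusted p of 0.575. *Ret* overlapped too (0.38 ± 0.54 SE, edgeR adjusted p = 0.972). *Gfra1* was lower in both AgRP-Gq;POMC-Gi libraries without passing (-1.20 ± 0.66 SE, edgeR adjusted p = 0.906). Its log2 fold change was -0.50 when AgRP-Gq;POMC-Gi replicate 1 and -2.52 when replicate 2 was left out. The share of all genes lower in both of these libraries was not counted in this cluster and was 27.7% in all neurons. *Gfra2* had a log2 fold change of -0.40 ± 1.00 (SE, edgeR adjusted p = 0.986). TMM factors moved the median of all genes by 0.15 in this cluster, without turning any of these directions. Without control replicate 2 the log2 fold change was -0.030 for *Ret* and 0.0074 for *Gfra2*. The 4 oligodendrocyte markers were lower in AgRP-Gq;POMC-Gi libraries in all neurons (median log2 fold change -0.71) and in cluster 97 (-1.37), none of them called, and their summed level in cluster 97 was 709 and 380 CPM in controls against 131 and 219 CPM. The 2 microglial markers tested were higher in cluster 97 (median log2 fold change 1.14, smallest edgeR adjusted p = 0.866). The part of these markers in the differences between the groups was not tested.

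Over single clusters, 278 pairs of a member and a cluster could be tested in the 120 clusters that had 5 or more nuclei in each library. None passed, against 0.0387% of all pairs of a gene and a cluster, and DESeq2 called 0. An unadjusted p under 0.05 was found for 20 pairs (7.19%, against 4.51% of all pairs). *Gfral* passed the filter in 9 clusters, *Ret* in 70, *Gfra1* in 95, *Gfra2* in 104 and *Gdf15* in 0. The lowest unadjusted p was that of *Gfra2* in cluster 53, at 74.1 and 83.6 CPM in controls and at 23.1 and 25.4 CPM in the other libraries (log2 fold change -1.62 ± 0.43 SE, edgeR adjusted p = 0.994). *Gfra1* in the motor neuron-like cluster 116 was at 125 and 98.5 CPM against 54.0 and 26.9 CPM (log2 fold change -1.28 ± 0.44 SE, edgeR adjusted p = 0.302). Both pairs were picked for their low p, so the lack of overlap between the groups in them is no further result. The share of all pairs of a gene and a cluster without overlap was not counted. In all neurons, 27.7% of genes had both AgRP-Gq;POMC-Gi libraries below both controls. Over 13 cell types, 9 pairs were tested and none passed, against 0.111% of all pairs of a gene and a cell type, and DESeq2 called 0. An unadjusted edgeR p under 0.05 was found for *Gfra1* in neurons and in one immune cell type, and for neither in DESeq2. In the immune cells it rested on 6 UMIs in 4 control nuclei of 61 nuclei in all (6.56%). The gene thus met the filter on detection only through the group in which it was higher. In neurons the unadjusted edgeR p was 0.0177 with a replicate block, 0.0213 without a filter and 0.0200 with edgeR's own filter. It was 0.126 without TMM factors. The log2 fold change there was 0.19 and 0.27 without control replicate 1 and 2. It was 0.26 and 0.20 when AgRP-Gq;POMC-Gi replicate 1 and 2 was left out.

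No gene of the other lists passed between the groups either. Of the RET partners and adaptors, 19 were tested in neurons (11 higher, 8 lower, median log2 fold change 0.04) and 19 in cluster 97 (12 higher, 7 lower, median 0.33), and none passed. Of the area postrema companion genes, 9 were tested in neurons (8 higher, 1 lower, median log2 fold change 0.22) and 14 in cluster 97 (9 higher, 5 lower, median 0.07), and none passed. Of 10 genes of the integrated stress response, which induces *Gdf15*, 3 were tested in neurons (2 higher, 1 lower, median log2 fold change 0.01) and 3 in cluster 97 (2 higher, 1 lower, median 0.58), and none passed. Of the 10 immediate early genes that the study used to rank neuronal clusters, 6 were tested in neurons (5 higher, 1 lower, median log2 fold change 0.17). In cluster 97, 7 were tested (5 higher, 2 lower, median 0.57). None passed, and 2 had an unadjusted edgeR p under 0.05 in neurons. The median of all genes tested in cluster 97 was 0.09. Between nuclei with and without *Gfral*, 7 of these immediate early genes and 4 stress response genes were tested and none passed.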

How the data were processed

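The authors sorted hindbrain nuclei by DRAQ5, mapped reads to GRCm38 (mm10) with Cell Ranger 7.0.0, and filtered and annotated nuclei with Seurat 4.3.0. The deposited matrices hold raw UMI counts per gene and nucleus, and the deposited annotation gives the quality call, cell type and cluster used here. The members and gene lists were chosen with earlier results of these data known. The comparison of cluster 97 nuclei with and without *Gfral*, its named genes (the 10 with the lowest p in each direction, and *Rbfox3*) and the barcodes left out by the authors were examined after the data had been seen.

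Counts were added up over the nuclei of a library in each cluster or type and given as CPM of all UMIs of the same nuclei. Genes detected in 5% or more of the nuclei were tested with edgeR 4.0.16 (quasi-likelihood test, TMM, R 4.3.3, Benjamini-Hochberg adjustment over all genes of a comparison), without a replicate term for groups and with the library as a block within cluster 97. The SE beside an edgeR log2 fold change is the absolute change divided by the square root of the F statistic of its test. It is not a separate estimate of error, and few libraries stand behind it. Alternatives were DESeq2 1.42.0, no TMM factors, other filters, a replicate block, leaving out each library, and glmmTMB 1.1.9 over nuclei. The authors' mixed model was not used here. Shares have exact Clopper-Pearson 95% intervals, and the limit for 0 nuclei is 3 of the total, for counting error only. Thinning drew 2000 UMIs per nucleus and left out 166 shallower neurons. It kept 11400 of 16816 oligodendrocytes and 3857 of 4378 astrocytes. Doublets were treated only as in the authors' quality call. The edgeR fits between groups in neurons and in cluster 97, and the fit between its nuclei with and without *Gfral*, were tested on simulated data. Libraries held 48904976 to 53089402 UMIs. Named genes were the 5 members, their 5 highest clusters, every cell type, the 5 genes most alike over clusters and the lists of RET partners, area postrema companions, GDNF family, stress response and immediate early genes. *Ddit3*, a symbol shared by 2 identifiers, was left out of shares per nucleus. Python 3.11.15, numpy 2.4.6, pandas 2.3.3, scipy 1.17.1 and matplotlib 3.10.9 were used. Results for 1 gene of these lists are not reported here.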

Additional observations from a re-analysis of the deposited data

Results flagged for a closer look

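The authors left 4842 barcodes out at quality control, and 3 members had more CPM there in both AgRP-Gq;POMC-Gi libraries than in either control library, in data that no comparison above uses. So had 14.1% of the 16132 genes with 50 or more UMIs in these barcodes, while 22.2% had less in both than in either control library. *Gfral* was at 2.18 and 3.63 CPM in AgRP-Gq;POMC-Gi replicates 1 and 2, against 0.658 and 1.69 CPM in controls, and a single barcode of replicate 2 with 16156 UMIs held 17 of its 28 *Gfral* UMIs. Without this barcode, a step chosen after its value was seen, replicate 2 was at 1.43 CPM, below control replicate 2, and the groups overlapped. *Ret* was at 8.86 and 12.7 CPM against 8.03 and 7.91 CPM. *Gfra1* was at 40.9 and 54.5 CPM against 34.8 and 40.9 CPM, where the nearest libraries of the groups differ by less than 0.1 CPM. These differences were not tested.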

How the results depend on the processing

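Of the summary values under all alternatives, 127 kept their direction and side of the threshold or moved by less than the spread, 29 moved, 1 became stronger and 3 reversed. Of the values of single named genes, 241 stayed, 18 became weaker and 8 stronger. Between the groups in neurons, the count of genes was 10 in DESeq2, 1 without a filter, 1 with edgeR's own filter and 3 to 2017 with a library left out. *Gfral* in neurons was 0.69 in the mixed model over nuclei, a fit with only 4 libraries as its random term whose p is not used, and *Gfra2* ranged from -0.23 to 0.071 with a library left out, the latter without AgRP-Gq;POMC-Gi replicate 1. In cluster 97 the count was 0 in DESeq2, 10 without a filter and 0 to 26 with a library left out, while *Gfral* ranged from 0.34 to 1.16, *Ret* from -0.030 to 0.68 and *Gfra2* from -0.84 to 0.0074, both turning sign without control replicate 2, and *Gfra1* from -2.52 to -0.50. A library left alone in its group was assumed to vary like the other group. In the mixed model, the log2 fold changes in cluster 97 were 0.31 ± 0.91 for *Gfral* and 0.0070 ± 0.70 for *Ret* (SE). They were -1.55 ± 1.05 for *Gfra1* and -0.53 ± 0.93 for *Gfra2* (SE). With the replicate number as a block, 168 genes were called in neurons, 13 in cluster 97 and 0 pairs of a member and a cluster. The labels do not say that equal numbers pair the libraries, and their deviations correlated at r = 0.18 over 12115 genes in 2 pairs.

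By nuclei rather than UMIs, cluster 97 held 14.0% of neuronal *Gfral*. The share of *Gfral* nuclei with *Ret* was 5.63% after thinning, 34.8% from 2 *Gfral* UMIs on and 50% in cluster 97 (14.8% there after thinning). The leading cluster became rank 2 (log-normalized mean) and 4 (thinned share) for *Ret*, 3 and 3 for *Gfra1*, and 2 and 118 for *Gdf15*. Between nuclei of cluster 97 with and without *Gfral*, the count of genes was 242 without TMM factors, 103 in DESeq2 and 35 to 265 with a library left out. The causes were not tested. Sparse counts limit *Gdf15* (44 UMIs in neurons) and *Gfral* outside cluster 97 (253 UMIs).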
